A study of Mus musculus with 6 samples.

Results

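The genes described here are receptors of fibroblast growth factors (Fgfr1, Fgfr2 and Fgfr4), the ligands Fgf2 and Fgf7, and genes that respond to or restrain the ERK kinases downstream of the receptors (Spry1, Spry2, Spry4, Dusp6 and Etv5). They were chosen by name as 10 members of the FGF pathway, and every array probe whose platform gene symbol was one of these names was taken, which gave 16 of 45281 probes for 9 of the 10 genes. No probe used here is named for Spry1. Of the 16 probes 14 passed the filter on dim probes, and all 9 genes were tested among 11262.

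Expression was measured in sorted satellite cells, the stem cells of skeletal muscle, from male C57BL/6 mice aged 8 to 10 weeks. The pharyngeal group comprised 3 pools from pharyngeal muscle, and the limb group 3 pools from gastrocnemius and quadriceps muscle. Each pool held 150000 to 200000 cells, taken from 10 to 30 mice per experiment, and its RNA was amplified in 1 round before hybridization to an Illumina MouseWG-6 v2.0 array. No group was treated, no modified allele is named in the labels, and the sources used here do not give the sorting markers. A pool averages many animals, so that p-values measure the spread between pools.

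Fibroblast growth factors bind receptor tyrosine kinases together with heparan sulphate chains on the cell surface, and the receptors pass the signal through Ras to the kinases MEK and ERK. ERK induces its own brakes, among them the Sprouty proteins, which block signalling between the receptor and Raf, and the phosphatase Dusp6, which dephosphorylates ERK in the cytoplasm. In muscle, Fgf2 is a classical mitogen of satellite cells, Fgfr1 and Fgfr4 are the receptors best known from these cells, and Sprouty 1 is known for the return of dividing satellite cells to quiescence in the mouse.

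The detection p-value was under 0.05 for 20919 to 22793 probes per array. Across all genes 374 of 11262 (3.32%) differed between the groups at an adjusted p under 0.05 (limma), 193 higher and 181 lower in the pharyngeal pools, and the count was 80, 62 and 58 without limb pool 1, 2 and 3. The pharyngeal pools varied more among themselves, with a median SD per gene of 0.36 on the log2 scale against 0.22 in the limb pools. All arrays lay on 1 chip, with the groups on separate positions, so that position and group cannot be told apart. The satellite cell markers Pax7, Myf5, Myod1, Calcr, Cdh15 and Itga7 were each above background on all 6 arrays. Of 18 measured genes of that list 7 were lower and none higher in the pharyngeal pools, and their summed normalized intensity was 4041 to 5042 there against 7999 to 10297 in the limb pools. Of 16 measured epithelial markers 8 were higher and none lower in the pharyngeal pools, with sums of 2954 to 10283 against 533 to 692. Of the 16, 5 were above background on no limb array. The filter on dim probes thus set the direction of these 5, and their part of the limb sums rests on background. Of the other marker lists, 3 of 4 thyroid and parathyroid genes, 2 of 12 myofibre genes and 1 of 9 myeloid genes were higher. In the fibro-adipogenic list 1 of 13 genes was lower. No gene passed (limma) among 12 endothelial genes (2 at an unadjusted p under 0.05) and 11 pericyte and smooth muscle genes (3 at that level). All 4 thyroid and parathyroid genes were above background on no limb array. The filter kept them through the pharyngeal pools alone and so set their direction. The 4 other genes of that list with a probe missed the filter.

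Among the members 1 gene, the receptor Fgfr4, passed the test and was lower in the pharyngeal pools, which is 1 of 9 tested where 1.61% of all genes were called lower and 3.32% in either direction. No member was higher by the test, where 1.71% of all genes were. The receptor Fgfr2 had a difference of 2.12 the other way without passing, and the ligands, Sprouty genes, Dusp6 and Etv5 showed small differences that did not pass. The median difference (pharyngeal minus limb, log2) over the 9 genes was -0.16, against -0.06 over all genes tested. The pools of the groups did not overlap for 3 members, Fgfr4, Fgfr2 and Dusp6, against 26.7% of all genes.

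**Figure D1:**
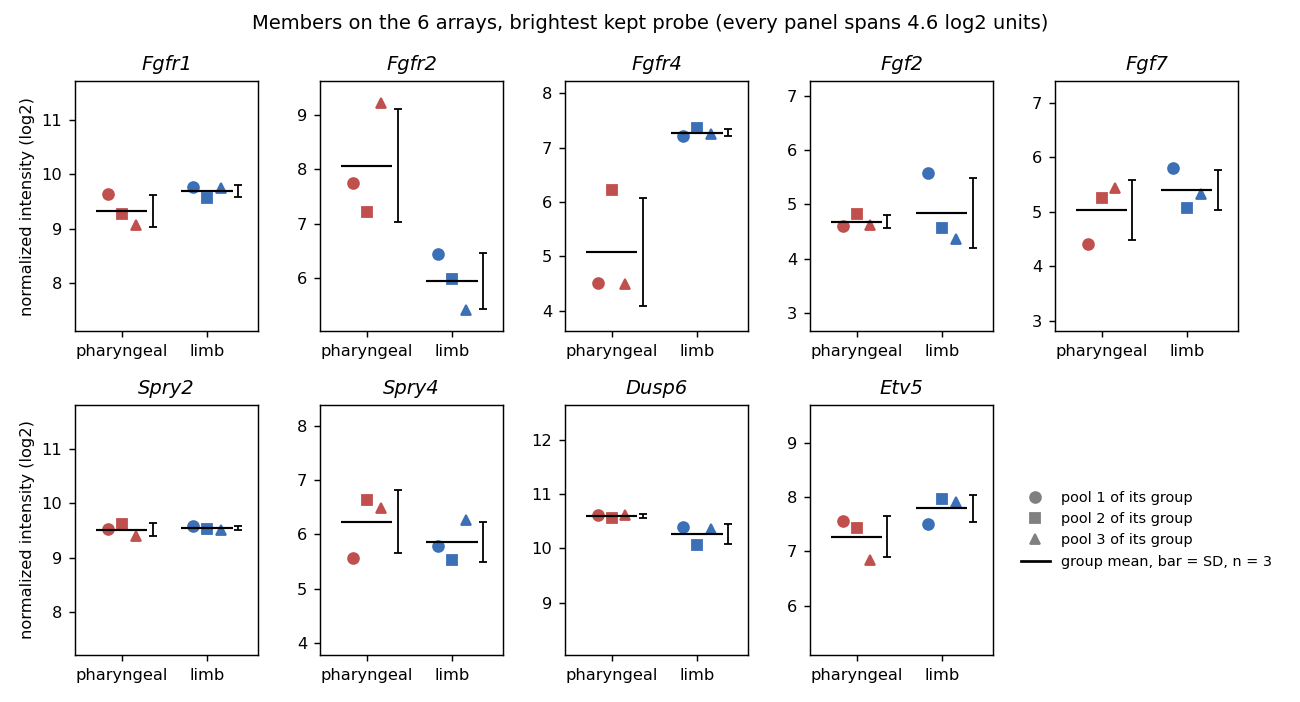
Normalized log2 intensity of each measured member on the 6 arrays, read from its brightest kept probe. Each point is 1 pool, the line is the group mean and the bar its SD (n = 3). Fgfr4 lay at 7.22 to 7.36 in the limb pools and at 4.50 to 6.22 in the pharyngeal pools, and Fgfr2 was higher in every pharyngeal pool than in any limb pool.

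Because the receptors Fgfr4 and Fgfr2 had the largest differences, the 250 bases before their annotated starts are shown, from RefSeq on GRCm38.p6, written 5′ to 3′ on the gene's strand. RefSeq windows matched 8 of the 10 members by symbol. Capitals mark E-boxes (CANNTG), the motif of myogenic bHLH factors, and the core CCGGAA of ETS factors such as Etv5, searched on both strands, and no marked motif overlaps another. Fgfr4 lies at chr13:55152568-55152817 on the plus strand and Fgfr2 at chr7:130266809-130267058 on the minus strand.
Fgfr4: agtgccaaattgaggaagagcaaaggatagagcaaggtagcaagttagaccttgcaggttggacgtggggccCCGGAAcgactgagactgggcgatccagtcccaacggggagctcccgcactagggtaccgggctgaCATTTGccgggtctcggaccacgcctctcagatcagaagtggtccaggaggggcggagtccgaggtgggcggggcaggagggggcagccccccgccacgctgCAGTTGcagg
Fgfr2: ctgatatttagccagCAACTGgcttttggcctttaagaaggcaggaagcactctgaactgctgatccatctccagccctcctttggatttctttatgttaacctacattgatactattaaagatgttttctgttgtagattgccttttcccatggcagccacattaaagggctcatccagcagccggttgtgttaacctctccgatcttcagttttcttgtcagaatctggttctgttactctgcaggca
The Fgfr4 window holds 2 E-boxes, which begin 112 and 10 bases upstream of the start, and 1 CCGGAA core 178 bases upstream. The Fgfr2 window holds 1 E-box, 235 bases upstream, and no CCGGAA core. E-boxes of this loose form occur in 66.2% of 32851 RefSeq windows of the same length and the ETS core in 12.0%, so that the matches are a description of the letters only.

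Fgfr4, the receptor most closely tied to the myogenic lineage, was measured by 1 probe. Its normalized log2 values were 4.52, 6.22 and 4.50 in pharyngeal pools 1, 2 and 3 and 7.22, 7.36 and 7.26 in limb pools 1, 2 and 3. The limb pools lay close together, and all 3 stood above every pharyngeal pool. On the scale of the deposited intensities the probe read 104.4, 159.1 and 99.6 against 195.8, 243.7 and 220.2, and it was above background on 1 pharyngeal array, that of pool 2, so that the levels of pharyngeal pools 1 and 3 rest on background. The group means were 5.08 ± 0.99 and 7.28 ± 0.07 (SD, n = 3), a difference of -2.20 (SE 0.45, 95% interval -3.26 to -1.14, limma adjusted p = 0.0482), or 4.59-fold more in limb pools.

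The call for Fgfr4 lay close to the threshold. It was kept without pharyngeal pool 2 (difference -2.73, adjusted p = 0.00512) and lost without pharyngeal pool 1 or 3 (adjusted p = 0.0854 and 0.0896) and without limb pool 1, 2 or 3 (0.156, 0.188 and 0.177), while the difference stayed between -2.73 and -1.90 in these 6 fits. With no background model the difference was -1.03 (adjusted p = 0.0268), and in the fit over all kept probes the Fgfr4 probe had an adjusted p of 0.0512. The 18 satellite cell markers had mean log2 levels of 7.04, 7.31 and 6.84 in the pharyngeal pools and 7.96, 8.25 and 8.27 in the limb pools. Pharyngeal pool 2, the highest of its group in Fgfr4, was thus also the highest of its group in this mean. Single markers varied. Pax7, Calcr and Itga7 were highest of that group in pool 2, Myf5 and Myod1 in pool 1, and Cdh15 in pool 3. The means of the myofibre and pericyte lists were also highest in pool 2. The part of satellite cell markers in the Fgfr4 difference was not tested. In pooled cells fewer satellite cells and less RNA per satellite cell cannot be told apart.

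The genes whose centred profiles over the 6 arrays lay nearest to that of Fgfr4, by Euclidean distance among all genes tested, were 6330509M05Rik (distance 0.57), the ryanodine receptor Ryr3 (0.77) and Tmem229a (0.79). Ryr3 read 4.36, 5.83 and 4.34 in the pharyngeal pools and 6.90, 6.33 and 6.54 in the limb pools. Its higher value in pharyngeal pool 2 and lower pharyngeal level follow from its choice by likeness to Fgfr4, as they do for the other two genes. Tmem229a fell (-2.24, adjusted p = 0.0169, higher than every pharyngeal pool in 3 of 3 limb pools), whereas 6330509M05Rik (-1.94, adjusted p = 0.0660) and Ryr3 (-1.74, adjusted p = 0.0724) did not pass.

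Fgfr2, whose splice forms serve epithelia on one side and mesenchyme on the other, was measured by 4 probes, 2 of which passed the filter. The brightest read 7.74, 7.22 and 9.23 in the pharyngeal pools and 6.43, 5.99 and 5.42 in the limb pools. Every pharyngeal pool was above every limb pool, and pool 3 stood highest. The difference was 2.12 (SE 0.52, 95% interval 0.90 to 3.33), with an adjusted p of 0.0772 that missed the threshold. Without pharyngeal pool 3 the difference was 1.54 (adjusted p = 0.0740), and with no background model it was 1.34 (adjusted p = 0.111).

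The other Fgfr2 probes were dim. The kept one, number 3 by brightness, read 4.66, 4.85 and 5.90 against 4.43, 4.36 and 4.63, with no overlap and with pharyngeal pool 3 on top (difference 0.66, SE 0.33, adjusted p = 0.334 over probes). Number 2 by brightness was left out by the filter. It was above background on pharyngeal pools 2 and 3 (6.16 and 5.75) and on no other array (4.36 to 4.45). The dimmest lay between 4.44 and 4.97 on all arrays. The annotation assigns the kept dim probe to 1 RefSeq transcript and the other 3 probes to another, and with no probe sequences given here the splice form each one reads is not stated.

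The epithelial markers had mean log2 levels of 6.54, 6.95 and 8.47 in the pharyngeal pools, highest in pool 3 as for Fgfr2, and of 4.85, 4.74 and 4.79 in the limb pools. The order of pharyngeal pools 1 and 2 was the reverse of that in Fgfr2. Pharyngeal pool 3 was also the highest of its group in the means of the thyroid and parathyroid, fibro-adipogenic, endothelial and myeloid lists. Krt14, a keratin of basal epithelium, differed by 5.52 (SE 0.39, adjusted p = 0.00152). The within-group part of this epithelial level was also used as a covariate, which by its construction leaves the difference at 2.12. With it the SE for Fgfr2 was 0.35 and the limma adjusted p = 0.0247. This covariate mainly sets pharyngeal pool 3 apart from pools 1 and 2. The smaller SE therefore cannot tell the epithelial list from the other lists highest in pool 3. The part of epithelial RNA in the between-group difference was not tested.

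**Figure D2:**
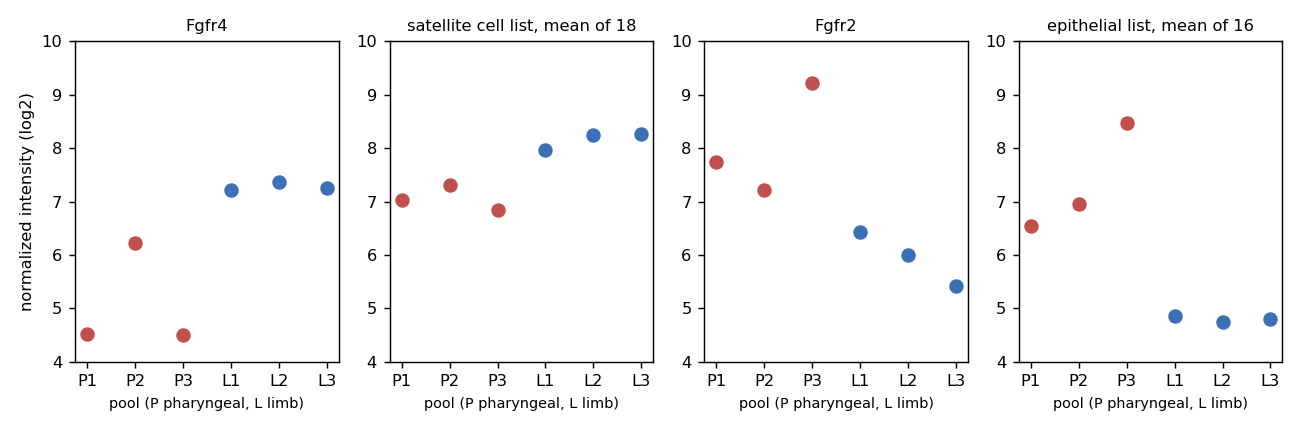
Normalized log2 intensity of Fgfr4 and Fgfr2 on each array beside the mean log2 level of the satellite cell list (18 genes) and the epithelial list (16 genes), on a common scale. Pharyngeal pool 2 was the highest of its group in Fgfr4 and the satellite cell list, and pharyngeal pool 3 in Fgfr2 and the epithelial list. Lists not drawn here shared these highest pools. They were the myofibre and pericyte lists for pool 2, and the thyroid, fibro-adipogenic, endothelial and myeloid lists for pool 3.

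Fgfr1, the receptor through which Fgf2 acts on satellite cells, was measured by 2 probes that did not give the same size. The bright one read 9.63, 9.26 and 9.06 in the pharyngeal pools and 9.76, 9.56 and 9.74 in the limb pools. Pharyngeal pool 1 lay within the limb range and the groups overlapped. The difference was -0.37 (SE 0.22, 95% interval -0.87 to 0.13, adjusted p = 0.387). The dimmer probe read 5.36, 5.94 and 5.87 against 6.58, 7.15 and 7.23, was above background on all 6 arrays, and was lower in every pharyngeal pool than in any limb pool. Its difference was -1.26 (SE 0.27, 95% interval -1.88 to -0.64), with an adjusted p of 0.0563 in the fit over 22633 probes, just short of the threshold. Averaging both probes gave -0.82 (adjusted p = 0.0439), which passed. Both probes are annotated to the same RefSeq transcript, and why they differ was not tested.

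The fit over all kept probes called 0 of the 14 member probes, where 2.51% of 22633 probes were called (limma), and 3 of the 14, 1 each of Fgfr1, Fgfr2 and Fgfr4, had an unadjusted p under 0.05. The groups did not overlap for 5 of the 14 member probes, against 25.5% of all kept probes. These 5 were the dimmer Fgfr1 probe, both kept Fgfr2 probes, the Fgfr4 probe and the brightest Dusp6 probe.

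**Figure D3:**
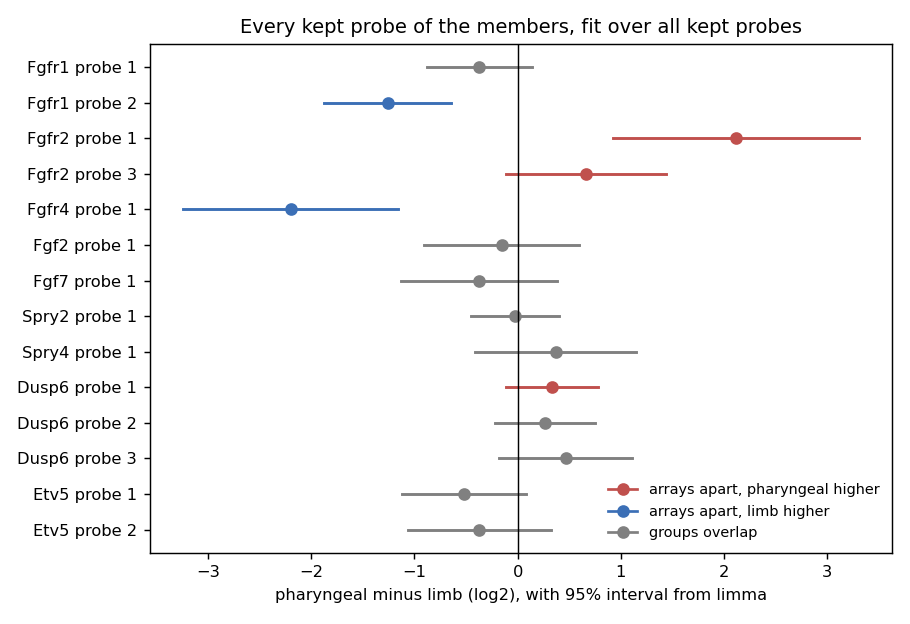
Difference between pharyngeal and limb pools (log2) for each of the 14 kept probes of the members, with the 95% interval of the limma fit over 22633 probes. Probes of a gene are numbered by brightness. The intervals of the Fgfr4 probe, the brightest Fgfr2 probe and the dimmer Fgfr1 probe do not reach 0 before adjustment, and those of the ligands and ERK feedback genes do.

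The ligands were close to background. Fgf2, the mitogen named above, read 4.61, 4.81 and 4.62 in the pharyngeal pools and 5.57, 4.57 and 4.36 in the limb pools. It was above background on 2 pharyngeal arrays and 1 limb array, and the groups overlapped (difference -0.16, SE 0.33, 95% interval -0.92 to 0.61, adjusted p = 0.836). Fgf7, a paracrine factor from mesenchyme that activates the epithelial form of Fgfr2, read 4.41, 5.25 and 5.43 against 5.80, 5.08 and 5.33. Its groups overlapped as well, with pharyngeal pool 1 not above background (difference -0.37, SE 0.33, 95% interval -1.14 to 0.39, adjusted p = 0.578).

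The Sprouty genes and Dusp6 report and limit ERK activity. Spry2 was bright and even, at 9.53, 9.62 and 9.40 in the pharyngeal pools and 9.58, 9.52 and 9.51 in the limb pools. The values overlapped almost completely, and the difference was -0.02 (SE 0.18, 95% interval -0.44 to 0.39, adjusted p = 0.964). Its sign turned under cyclic loess (0.0013) and median scaling (0.063). Spry4 read 5.57, 6.64 and 6.49 against 5.79, 5.53 and 6.27. Pharyngeal pool 1 lay among the limb pools, and the difference of 0.37 (SE 0.34, 95% interval -0.42 to 1.16) had an adjusted p of 0.595.

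Dusp6, the ERK phosphatase, was measured by 3 probes, all above background on all 6 arrays. The brightest read 10.62, 10.55 and 10.62 in the pharyngeal pools and 10.39, 10.06 and 10.35 in the limb pools. The pharyngeal pools varied by 0.04 (SD) and lay just above all limb pools. The difference of 0.33 (SE 0.19, 95% interval -0.10 to 0.77, 1.26-fold) did not pass (adjusted p = 0.372). The other probes differed by 0.27 (SE 0.21) and 0.47 (SE 0.28) with overlapping groups, and neither passed over probes (adjusted p = 0.543 and 0.411).

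Etv5, an ETS transcription factor induced by FGF signalling, was measured by 2 probes. The brighter read 7.56, 7.43 and 6.83 in the pharyngeal pools and 7.51, 7.96 and 7.91 in the limb pools, and the dimmer 7.10, 6.94 and 6.19 against 6.75, 7.31 and 7.27. On both probes pharyngeal pool 3 was the lowest array and pharyngeal pool 1 lay above limb pool 1. The differences were -0.52 (SE 0.26, 95% interval -1.12 to 0.09, adjusted p = 0.313) and -0.37 (SE 0.30, adjusted p = 0.556 over probes). Of the 4 measured ERK response members, then, Spry4 and Dusp6 had positive and Spry2 and Etv5 negative differences, and none passed. Differences as large as 1.16 for Spry4 and -1.12 for Etv5 lie within their intervals.

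The rest of the pathway was read from lists of named genes. Among other FGF ligands 9 of 22 listed genes were measured and none passed (limma), with 2 at an unadjusted p under 0.05, and the median difference was 0.17. The list also holds the FGF-binding proteins Fgfbp3, which is among the 9, and Fgfbp1, which missed the filter. The 13 genes that missed the filter included Fgf6, a ligand of developing and regenerating muscle, and Fgf8 and Fgf9. The smallest adjusted p were those of Fgf10, Fgf16 and Fgf13. Fgf10, a mesenchymal ligand of the epithelial form of Fgfr2, read 4.75, 4.88 and 5.16 in the pharyngeal pools and 4.30, 4.22 and 4.42 in the limb pools, where it was above background on no array. The pharyngeal level of Fgf10 exceeded the bound for limb pools at least 1.26-fold, with an adjusted p of 0.144 that missed the threshold. Fgf16 was not above background in any pharyngeal pool, and its limb level exceeded the bound at least 1.22-fold (adjusted p = 0.146, also missed), and Fgf13 differed by 0.43 (adjusted p = 0.475).

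Among 15 measured other receptors and co-receptors 1 rose and 1 fell, where 1.71% of all genes were called higher and 1.61% lower (limma). The unadjusted p was under 0.05 for 3 of the 15, and the median difference was -0.19. The adhesion molecule Ncam1, which binds FGF receptors and also marks myogenic cells, fell by 2.10 (SE 0.33, adjusted p = 0.0185). It read 4.64, 5.75 and 5.66 in the pharyngeal pools and 7.55, 7.18 and 7.63 in the limb pools, with no overlap. In pharyngeal pool 1 this probe was not above background, so that its level there rests on background. The other kept Ncam1 probes differed by -1.25, -0.82 and 0.00, so that the fall was not seen on all 4 probes. Syndecan 1 (Sdc1), a heparan sulphate proteoglycan abundant in epithelia, rose by 1.41 (SE 0.29, adjusted p = 0.0469), from 6.55, 7.10 and 6.14 in the limb pools to 8.20, 8.14 and 7.70. The groups were apart. In the fit over probes this Sdc1 probe did not pass (adjusted p = 0.0515), nor did the second one (0.92, adjusted p = 0.226), and Sdc1 passed in none of the 6 fits without 1 pool (adjusted p from 0.0540 without pharyngeal pool 3 to 0.177 without limb pool 3). Ncam1 did not pass without limb pool 1, 2 or 3 (adjusted p = 0.0943, 0.0792 and 0.109). Nrp1 came next (0.72, adjusted p = 0.180) and did not pass. Sdc2, Sdc3 and Sdc4, of which the last 2 are satellite cell proteoglycans, lay between -0.13 and -0.06. The remaining classical receptor, Fgfr3, missed the filter.

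Among 15 measured enzymes that build or trim heparan sulphate 1 fell, where 1.61% of all genes were called lower (limma). The unadjusted p was under 0.05 for 2 of the 15, and the median difference was -0.17. Hs6st2, a sulphotransferase that adds 6-O sulphate to the chains, read 6.05, 5.97 and 5.38 in the pharyngeal pools and 7.67, 8.01 and 8.00 in the limb pools. All pharyngeal pools were below all limb pools, and the gene fell by 2.10 (SE 0.25, adjusted p = 0.00736), or 4.27-fold. A second probe of Hs6st2 differed by -1.82 (adjusted p = 0.0238 over probes) and the dimmest probe by -0.52 (adjusted p = 0.412). The call was lost without limb pool 2 or 3 (adjusted p = 0.0594 and 0.0601). Sulf1, a secreted enzyme that removes 6-O sulphate, had the next smallest adjusted p (-0.77, SE 0.18, adjusted p = 0.0724) and did not pass, nor did Extl3 (0.49, adjusted p = 0.341). The mean of the kept Sulf1 probes gave a smaller difference of -0.45 (SE 0.24, limma adjusted p = 0.343).

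No gene of the Ras-ERK cascade itself passed. Of 26 measured genes none passed (limma), 3 had an unadjusted p under 0.05, 13 had positive and 13 negative differences, and the median was -0.06, the same as over all genes. The differences ran from -0.84 for the receptor adaptor Gab1 (adjusted p = 0.186) to 0.46 for Nras (adjusted p = 0.226). Rap1a, a small GTPase, differed by -0.53 (adjusted p = 0.217). The kinases Braf, Map2k1 and Map2k2 lay at 0.01, 0.03 and -0.15. Gab1 passed without pharyngeal pool 2 (-1.18, adjusted p = 0.0365).

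Of 29 other ERK feedback and response genes 3 rose and none fell, where 1.71% of all genes were called higher and 1.61% lower (limma). The unadjusted p was under 0.05 for 7 of the 29, and the median difference was 0.13. Lif, a cytokine of the interleukin 6 family, read 7.75, 7.03 and 7.36 in the pharyngeal pools and 5.04, 4.71 and 5.16 in the limb pools and rose by 2.41 (SE 0.25, adjusted p = 0.00450). Its other 3 kept probes gave smaller differences of 1.43, 1.38 and 1.37, of which the first did not pass over probes (adjusted p = 0.118), and the mean of the kept probes gave 1.65. The transcription factor Ets1 rose by 1.63 (SE 0.22, adjusted p = 0.0104), with 8.33, 8.32 and 8.15 against 6.91, 6.32 and 6.68. All 3 of its kept probes rose. Phlda1, a gene induced by growth factors, rose by 1.12 (SE 0.19, adjusted p = 0.0256), with 10.33, 10.25 and 9.99 in the pharyngeal pools against 9.07 ± 0.09 (SD, n = 3) in the limb pools. Lif passed in each of the 6 fits without 1 pool. Ets1 did not pass without limb pool 2 or 3 (adjusted p = 0.0671 and 0.0717), nor Phlda1 without pharyngeal pool 2 (0.0553) or limb pool 1, 2 or 3 (0.117, 0.121 and 0.150).

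Relatives of the members in this list did not pass. Spred1 and Spred2, Sprouty-related inhibitors, differed by -0.16 and -0.07, and the FGF antagonist Il17rd by -0.07. The ERK phosphatases Dusp4, Dusp5 and Dusp7 differed by 0.60, 0.13 and 0.38, and Etv1 by -0.64, and none of these 7 genes passed. The immediate early genes Egr1 and Fos, which follow ERK activity and also tissue dissociation, differed by -0.27 and -0.50 without passing (adjusted p = 0.514 and 0.223), and Ccnd1 by -0.34 and Myc by -0.02. Beside Lif, Ets1, Phlda1 and Sdc1, the summed epithelial markers stood higher in the pharyngeal pools too, at 2954 to 10283 against 533 to 692. So did the thyroid and parathyroid (1180 to 3282 against 78 to 80) and myeloid sums (1274 to 2504 against 434 to 828). The myofibre sum did as well (1345 to 1938 against 788 to 864). The limb sums of the thyroid and parathyroid list rest on background. Most of the myeloid sum came from Lyz1 and Lyz2, which differed by 1.99 and 1.82, and of these only Lyz1 passed. The median difference of the myeloid list was 0.19, and the groups overlapped for Tyrobp (0.36) and Adgre1 (0.19). The satellite cell and fibro-adipogenic sums were lower, and the endothelial and pericyte sums overlapped. The fibro-adipogenic gap was narrow, with a highest pharyngeal sum of 6035 and a lowest limb sum of 6176. The mean log2 levels of that list overlapped, at 7.28, 7.84 and 8.19 in the pharyngeal pools and 8.46, 7.80 and 7.77 in the limb pools. The epithelial sum was highest in pharyngeal pool 3, where Ets1, Phlda1 and Sdc1 were lowest of their group. Lif was highest in pool 1. The part of these markers in the differences was not tested.

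**Figure D4:**
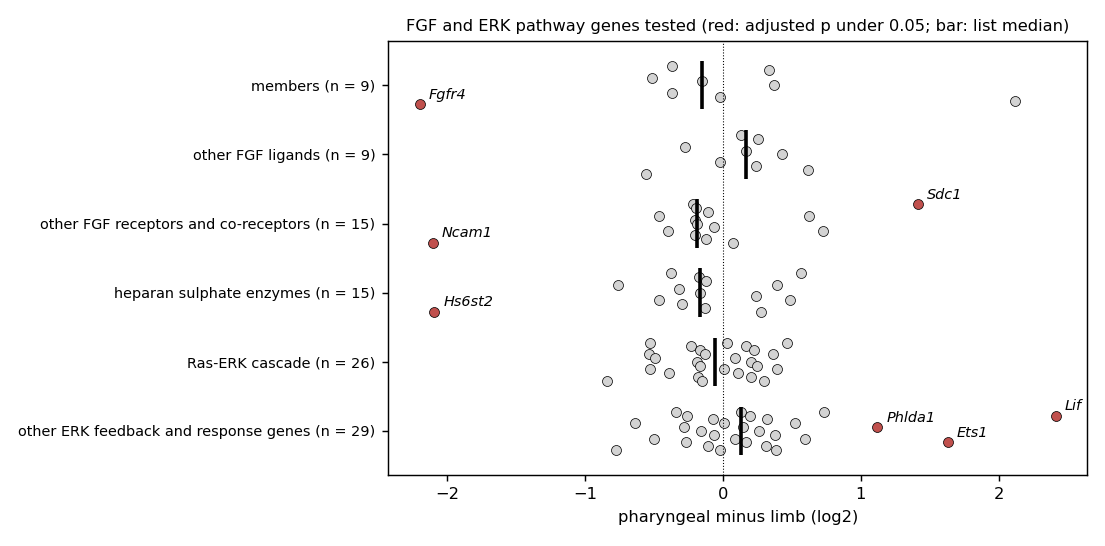
Difference between pharyngeal and limb pools (log2) of each gene tested in the members and in the 5 pathway lists, with 1 point a gene. Points in red passed an adjusted p of 0.05, and the vertical bar is the list median. The medians lay between -0.19 and 0.17, and 7 genes passed across the 6 rows.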

How the data were processed

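For every probe and array the deposited main table gives an unnormalized intensity and a detection p-value, and the authors also deposited processed intensity values. GenomeStudio 2011.1 is named in the submitters' processing notes. Background correction is named in the series' design text, yet the lowest unnormalized intensity on an array was 76.1 to 82.1, as in data without it. The processed table kept the ranks (Spearman's rho 1 across probes) and served as an alternative. The platform annotation names 1 gene for 34885 probes, several for 18 and none for 10378; no genome build is given for it.

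With limma 3.58.1 in R 4.3.3, background was removed by normexp, read from the detection p-values, with 16 as offset, which understates folds of dim genes. Quantile normalization and log2 came next. The filter kept the 22633 probes whose detection p was below 0.05 on 3 or more of the 6 arrays. Each gene was read from its brightest kept probe. Differences are pharyngeal minus limb from lmFit and eBayes (group only, 2-sided), with Benjamini-Hochberg adjustment over all genes tested and a threshold of 0.05. A second fit ran over all kept probes. The number of arrays, 3 per group, limits the precision. Where no array of a group had a probe above background, its fold was bounded against the higher of the probe's value and the lowest value with a detection p under 0.05 on each array, and is written as at least N-fold. The fit was tested on simulated data.

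The members and the gene lists were chosen with earlier results of these data known. Named genes are all members, the genes past the threshold in each pathway list (at most 6, filled to 3 by the smallest adjusted p), the 3 genes nearest to each member called, and for cell type lists the counts and up to 4 genes by smallest adjusted p. Genes named beside these in the pathway paragraphs, and the cell type markers other than Krt14, were chosen for their roles after their values were seen. Alternatives changed the background step and its offset, the scaling, the table used, the dim-probe filter, the variance model, the weights of arrays, the choice of probe and the covariates (epithelial level or replicate block), or left out each pool.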

Additional observations from a re-analysis of the deposited data

How the results depend on the processing

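Of 9 measured members, 8 kept the sign of their difference in every alternative that could test them, and the exception was Spry2, whose difference of -0.023 was 0.0013 under cyclic loess, 0.063 under median scaling, 0.037 without pharyngeal pool 3, 0.0014 without limb pool 1 and from -0.080 to 0.037 without 1 pool. Among the cell type markers Tyrobp turned from 0.36 to -0.014 without pharyngeal pool 3, the lowest of a range up to 0.82 without 1 pool. The count of members called was 1. It was 0 with cyclic loess, with no filter, with detection on all 6 arrays (which leaves Fgfr4 untested) and with the replicate block, 2 with the trended robust variance model, array weights, the epithelial covariate (Fgfr2 and Fgfr4 in these 3) and the mean of the kept probes (Fgfr1 and Fgfr4), and 0 to 1 without 1 pool. Median scaling called Fgfr2 in place of Fgfr4 (adjusted p = 0.0368 for Fgfr2 and 0.0677 for Fgfr4). Over probes the count of member probes called was 0 and became 1 with no background model, median scaling, the processed table, detection on all 6 arrays or the epithelial covariate, 2 with an offset of 50 or the trended robust model, 3 with array weights, and 0 to 1 without 1 pool.

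The count of all genes called, 374, was 568 with the trended robust variance model, 139 with the replicate block, 578 with the epithelial covariate and 58 to 360 without 1 pool; higher against lower calls were 193 to 181, and 211 to 123 with median scaling. Other receptors and co-receptors went from 2 calls to 1 with median scaling or array weights, 0 with no filter or the replicate block and 0 to 1 without 1 pool. Heparan sulphate enzymes went from 1 call to 2 with no background model, an offset of 50, the processed table, no filter or the trended robust model, and to 0 to 1 without 1 pool. The Ras-ERK cascade had 0 calls and 0 to 1 without 1 pool, and the other feedback and response genes 3, with 2 under the replicate block (Phlda1 lost, adjusted p = 0.0875), 4 with the trended robust model and 1 to 3 without 1 pool. Same-numbered pools did not deviate together (r = -0.01, -0.01 and 0.00 across genes), and the labels do not say that they are pairs, so the replicate block (Fgfr4 adjusted p = 0.0701, Fgfr2 0.142) shares only a number. Probes near background, as for Fgf2, Fgf7 and Fgfr4 in pharyngeal pools, limit what can be seen. The causes of these changes were not tested.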
